A study of Mus musculus with 10 samples.

Results

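The endoplasmic reticulum (ER) folding machinery and its stress signalling were followed in mouse TH2 cells through 32 genes chosen by symbol. TH2 cells are the helper T cells of type 2 immunity, which secrete large amounts of cytokine. All 32 genes were found among the 49671 gene IDs of the count table, and 31 of them were among the 13699 genes that passed the filter on low counts. The remaining gene, Derl3, held 21 counts over all libraries and was not tested. The genes fall into 6 roles: 4 stress sensors and their transcription factor, 8 chaperones and cofactors, 2 lectin chaperones, 7 oxidoreductases and folding cofactors, 7 degradation genes and 4 genes of translocation into and export from the ER.

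CD4+ T cells in the naive state, from C57BL/6 mice, were cultured towards TH2 and lysed for RNA on day 5. In the control group (3 libraries) the mice were labelled WT and fed regular chow holding 400 IU of vitamin D3 per kg. In the vitamin D-deficient group (7 libraries) the mice were also labelled WT, but were bred without ultraviolet light, were fed chow free of vitamin D metabolites, and came from the second generation so raised. Chow, ultraviolet light and breeding thus went together with the group. Their parts in any difference cannot be told apart, and diet below stands for all of them. No other agent was applied to either group, and the labels used here give no age. They also do not say that each library is a mouse of its own, so the p-values measure how far these samples spread, and that spread may be technical. Batch 1, as the labels name it, held 2 control and 5 deficient libraries, and batch 2 held 1 control and 2 deficient libraries.

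Proteins that enter the ER are folded there by chaperones, receive sugar chains that lectin chaperones read, and form disulfide bonds with the help of oxidoreductases. Proteins that fail to fold are pulled back out and degraded. When unfolded protein builds up, 3 membrane sensors start the unfolded protein response: IRE1-alpha (gene Ern1) splices the mRNA of Xbp1 into the form that encodes an active transcription factor, PERK (Eif2ak3) slows translation by phosphorylating eIF2-alpha, and ATF6 is cut in the Golgi into a transcription factor. In secretory lymphocytes XBP1 is known for expanding the ER, and in T helper cells the response accompanies activation and cytokine secretion.

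XBP1 and ATF6 are known to act on the ER stress response element (ERSE), which is CCAAT, any 9 bases and CCACG. The second form of the element (ERSE-II) is ATTGG, any 1 base and CCACG, and a further core bound by XBP1 is TGACGTGG. The matches in the members are shown because they are the part of the promoter that these factors are known to read. Promoters were RefSeq windows of 300 bases (GRCm38.p6), from 250 bases before to 50 after the start site, searched on both strands. Of the 32 members 27 had such a window, and Atf6, Hyou1, Manf, Derl1 and Sec61a1 did not. Below, capitals mark the fixed letters and lower case the bases between, 5′ to 3′ on the strand that carries the match.
Hspa5, chr2:34772025-34772043, plus strand: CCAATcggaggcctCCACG
Hsp90b1, chr10:86705638-86705656, minus strand: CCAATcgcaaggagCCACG
Hsp90b1, chr10:86705533-86705551, plus strand: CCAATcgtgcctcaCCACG
Dnajc3, chr14:118937827-118937845, plus strand: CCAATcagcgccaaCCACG
Calr, chr8:84847075-84847093, plus strand: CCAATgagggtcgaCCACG
Canx, chr11:50325800-50325818, minus strand: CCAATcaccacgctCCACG
Pdia6, chr12:17266491-17266509, plus strand: CCAATgaaaggcggCCACG
Ero1lb, chr13:12565682-12565700, minus strand: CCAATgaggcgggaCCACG
Creld2, chr15:88819520-88819538, minus strand: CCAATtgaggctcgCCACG
Syvn1, chr19:6046532-6046550, plus strand: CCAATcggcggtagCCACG
Derl3, chr10:75893242-75893260, minus strand: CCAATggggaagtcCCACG
Dnajb11 (ERSE-II), chr16:22857852-22857862, plus strand: ATTGGcCCACG
Herpud1 (ERSE-II), chr8:94386377-94386387, plus strand: ATTGGgCCACG
Sec24d (XBP1 core), chr3:123267470-123267477, plus strand: TGACGTGG

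The ERSE was thus present in 10 of 27 members with a window (37.0%) and in 37 of 27025 genes overall (0.137%). ERSE-II was in 2 members (7.41%) and in 12 of all genes (0.0444%), and the TGACGTGG core in 1 member (3.70%) and in 193 of all genes (0.714%). The CCACG end alone, which lies inside both elements and, on the opposite strand, inside the core, was in 23 members (85.2%) and in 35.5% of all genes. The members were chosen as genes of ER folding and of this response, and the shares of all genes include them. The contrast therefore describes the list and is not a result of these libraries. A match describes letters and is not a measured binding site, and a window without one says nothing of the factor.

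Whole windows are printed for 3 of the members with a match, picked by how their mRNA moved: Hspa5, which rose, and Pdia6 and Sec24d, which fell. The match is in capitals, and all are on the plus strand, which is the strand of the gene. The ERSE of Hspa5 lay 65 to 47 bases before the start site, that of Pdia6 98 to 80 bases before it, and the core of Sec24d 26 to 19 bases before it.
Hspa5, chr2:34771840-34772139: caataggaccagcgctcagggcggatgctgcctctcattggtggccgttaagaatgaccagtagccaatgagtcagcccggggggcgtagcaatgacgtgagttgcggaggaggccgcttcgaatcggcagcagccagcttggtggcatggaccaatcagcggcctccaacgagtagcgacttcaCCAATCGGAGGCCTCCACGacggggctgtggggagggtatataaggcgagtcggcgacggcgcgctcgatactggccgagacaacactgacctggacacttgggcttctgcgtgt
Pdia6, chr12:17266339-17266638: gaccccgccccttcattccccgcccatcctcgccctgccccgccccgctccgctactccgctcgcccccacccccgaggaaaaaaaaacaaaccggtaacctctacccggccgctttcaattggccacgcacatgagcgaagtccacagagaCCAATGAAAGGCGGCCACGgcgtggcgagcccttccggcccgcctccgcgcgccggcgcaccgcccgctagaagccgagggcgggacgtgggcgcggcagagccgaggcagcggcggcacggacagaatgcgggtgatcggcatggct
Sec24d, chr3:123267246-123267545: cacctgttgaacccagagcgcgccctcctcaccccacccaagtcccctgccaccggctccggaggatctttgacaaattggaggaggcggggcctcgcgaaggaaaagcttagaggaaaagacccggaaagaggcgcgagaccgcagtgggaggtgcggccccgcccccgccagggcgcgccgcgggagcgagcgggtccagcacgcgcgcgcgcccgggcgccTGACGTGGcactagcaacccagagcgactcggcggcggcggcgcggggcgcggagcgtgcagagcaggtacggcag

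Library totals ran from 5800698 to 13433276 counts, and every deficient library (7029207 or more) was deeper than every control (6462146 or less; exact permutation test over 120 splits, two-sided, p = 0.00833, the smallest it can give). Depth thus went with the group as well, and thinning to equal depth is among the alternatives below. Levels below are counts per 1000000 counts of the library total (CPM), and fitted changes are log2 fold changes, deficient minus control. Changes came from edgeR's quasi-likelihood test on counts with TMM scaling and a term for batch, and adjusted p-values are Benjamini-Hochberg over all 13699 genes. With totals alone as the scale, the median log2 fold change of all genes was 0.10, against 0.02 with TMM, so that CPM values sat slightly higher in deficient cells than the fitted changes. The helper T cell and TH2 genes Cd4, Cd3e, Gata3, Il4, Il5 and Il13 were present in all 10 libraries, at 9.39 CPM or more. Of 12 helper T cell markers 6 fell and 2 rose in the deficient cells, or 66.7%, where 58% of all genes tested were called. Their summed CPM was 2443 ± 39.0 (SD, n = 3) in controls and 1991 ± 64.4 (SD, n = 7) in deficient cells, with no overlap. Cd4 fell by 1.20, Ccr4 by 1.07, Cd3e by 1.04, Gata3 by 0.84, Trac by 0.49 and Cd3g by 0.28, while Il13 rose by 1.21 and Il5 by 0.84 on the log2 scale. Markers of other cells were not even: the summed CPM of 10 CD8 and cytotoxic markers was 46.5 to 91.5 in controls, 225 to 267 in deficient libraries 1 to 4 and 534 to 724 in deficient libraries 5 to 7. The 13 B and plasma cell markers summed to 60.3 to 161, 87.7 to 120.9 and 386 to 423 CPM in the same order. Mast cell and basophil markers summed to 5.42 to 5.93 CPM in controls and 9.69 to 44.6 CPM in deficient libraries, and 10 myeloid markers to 16.4 to 18.6 and 5.98 to 10.7 CPM. The lower myeloid sum came from Cd68 (13.9 ± 0.753 and 3.99 ± 0.709 CPM), while Adgre1 rose by 1.44 at under 1 CPM and Itgax did not pass. In bulk RNA fewer cells of a type and less RNA per cell cannot be told apart, and the part of these cells in the results was not tested.

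Across the diets the genes did not move as one. Of the 31 members tested, 9 rose and 11 fell in the deficient cells (adjusted p below 0.05, edgeR), which was 64.5%, where 58% of all genes tested were called. By direction 29.4% of all genes rose and 28.6% fell. Among the members, 6 of 31 had a called change of 2-fold or more, or 19.4%, beside 19% of all genes, and the median log2 fold change was -0.07 in members and 0.02 in all genes. The median size of the change was 0.32 on the log2 scale in members and 0.46 in all genes. Libraries of the 2 groups did not overlap for 21 of 31 members (11 with deficient higher, 10 lower), or 67.7%, beside 50.8% of all genes. The share of members called, in each direction and at 2-fold, was therefore near the background. The members' summed level stood at 6271 ± 134 CPM (SD, n = 3) in controls and 6317 ± 254 CPM (SD, n = 7) in deficient cells, and the ranges overlapped.

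**Figure D1:**
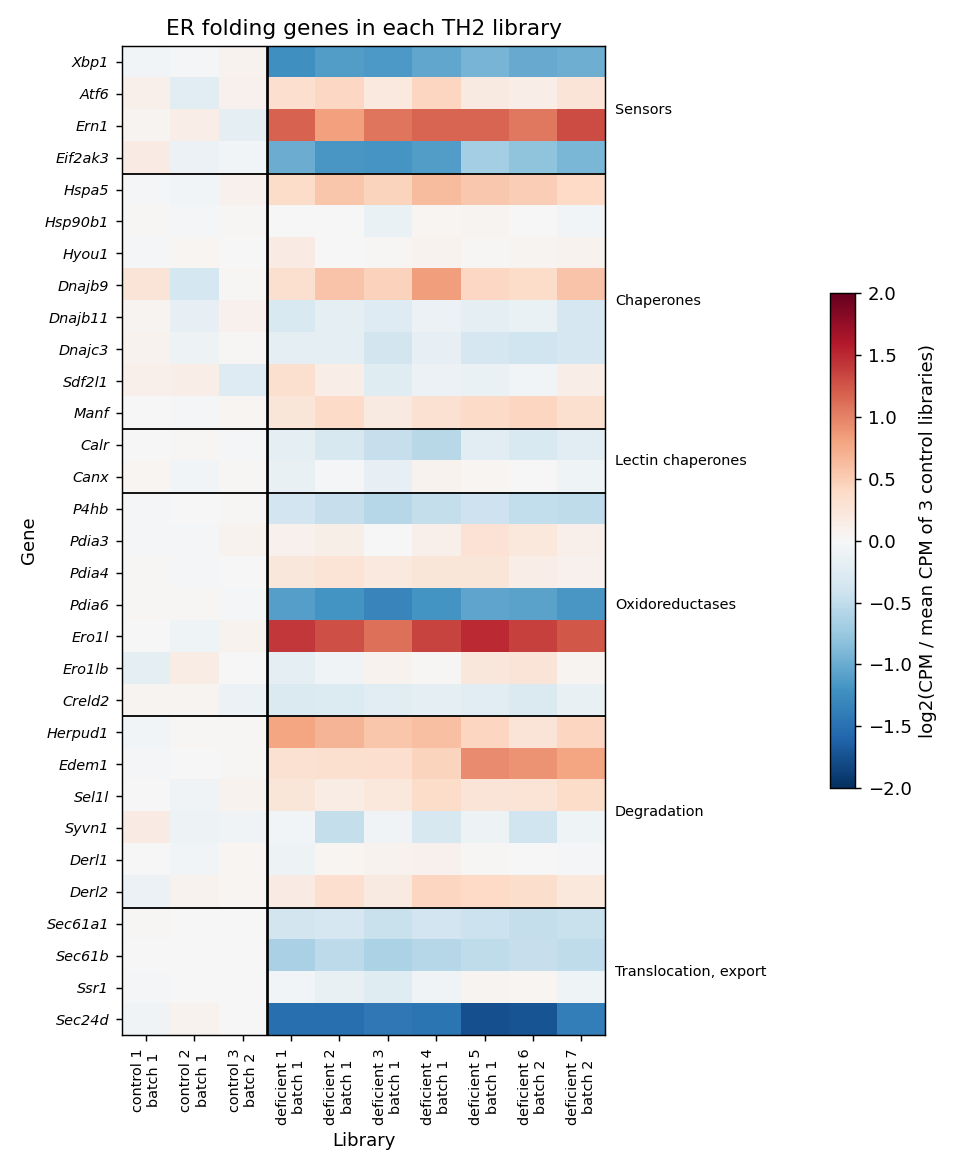
Level of the 31 tested members in each of the 10 libraries, as log2 of CPM over the mean CPM of the 3 control libraries (colour, red higher, blue lower), with genes grouped by role and libraries labelled by batch. Xbp1, Eif2ak3, Pdia6 and Sec24d were lower in all 7 deficient libraries and Ern1 and Ero1l higher in all 7, while Edem1 was highest in deficient libraries 5 to 7.

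By role, beside 29.4% of all genes higher and 28.6% lower, the counts were small and differences between roles were not tested. Of 4 sensor genes 1 rose and 2 fell, of 8 chaperones 3 rose and 2 fell, and of 2 lectin chaperones 1 fell. Of 7 oxidoreductases 1 rose and 3 fell, of 6 degradation genes tested 4 rose and 0 fell, and of 4 translocation and export genes 0 rose and 3 fell. Syvn1 and Derl1 among the degradation genes and Ssr1 among the export genes did not pass. Both counts of 0 were also 0 at an unadjusted p below 0.05, with DESeq2 and with limma-voom.

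**Figure D2:**
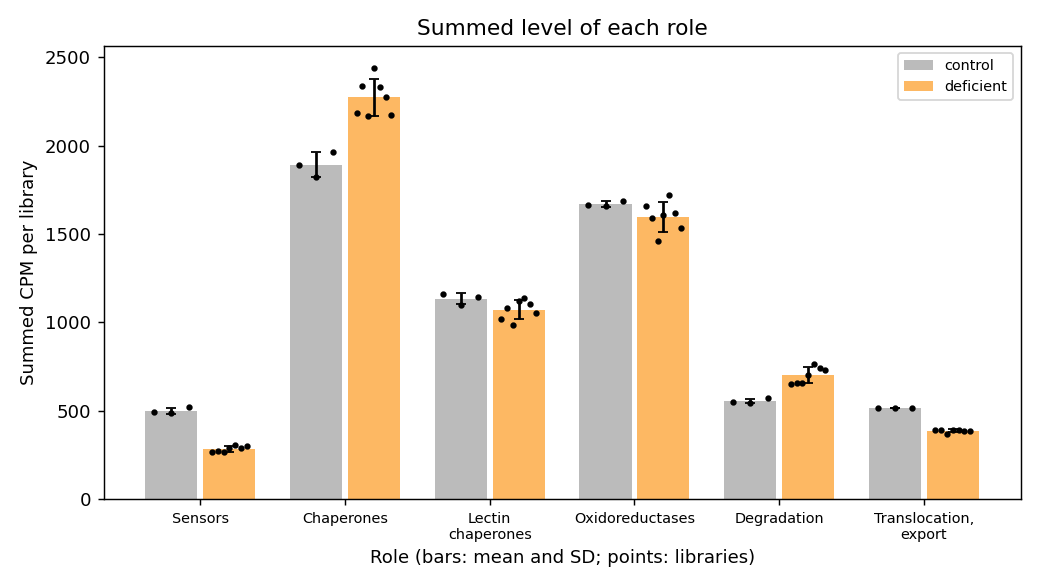
Summed CPM of the members of each role per library (points), with the mean (bar) and SD of 3 control (grey) and 7 deficient (orange) libraries. The sums of the sensor genes, of which Xbp1 was the larger part, and of translocation and export genes were lower in every deficient library. The sum of the chaperones, of which Hspa5 was the larger part, and that of the degradation genes were higher. Those of lectin chaperones and oxidoreductases overlapped.

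The sensor genes summed to 502 ± 17.3 CPM in controls (SD, n = 3) and 285 ± 16.8 CPM in deficient cells (SD, n = 7). Most of this was Xbp1, at 401 ± 19.5 and 192 ± 14.1 CPM, so the sum mainly followed that gene and not the membrane sensors. The chaperones summed to 1893 ± 71.7 and 2274 ± 104 CPM. Hspa5 alone had 961 ± 51.3 and 1349 ± 84.6 CPM of this, so the rise of the sum mainly followed that gene. The degradation genes summed to 556 ± 13.2 and 701 ± 46.0 CPM, and the translocation and export genes to 516 ± 0.870 and 387 ± 8.80 CPM. Lectin chaperones, at 1135 ± 31.8 and 1073 ± 54.5 CPM, and oxidoreductases, at 1670 ± 15.8 and 1598 ± 84.2 CPM, differed by less than the range of the libraries. These sums are descriptions and carry no test.

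Among the sensors the 2 arms of the IRE1 axis moved apart. Xbp1 (ENSMUSG00000020484, GRCm38 chr11:5520659-5525893), the transcription factor that IRE1-alpha activates, stood at 384, 397 and 423 CPM in the control libraries and between 171 and 212 CPM (median 194) in the deficient ones. Every deficient library lay well below every control. Xbp1 fell by 1.14 on the log2 scale (SE 0.0572, 95% interval -1.26 to -1.02, adjusted p = 3.98e-10, edgeR), which is 2.21-fold lower. Gene counts do not separate the spliced from the unspliced mRNA, so the active form was not measured.

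Ern1 (ENSMUSG00000020715, chr11:106394650-106487852), which encodes the enzyme that splices Xbp1, stood at 11.6, 12.2 and 9.75 CPM in controls and between 19.6 and 27.7 CPM (median 25.01) in deficient libraries. The groups did not overlap, with the higher values in the deficient libraries. Ern1 rose by 1.03 (SE 0.129, 95% interval 0.754 to 1.305, adjusted p = 6.82e-06, edgeR), or 2.04-fold. Per kb of exon, the scale used to compare levels between genes, Xbp1 was at 124 and Ern1 at 1.37 CPM per kb in controls, against 59.2 and 2.96 CPM per kb in deficient cells.

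Eif2ak3 (ENSMUSG00000031668, chr6:70844515-70905245), the gene of PERK, stood at 64.0, 52.6 and 54.9 CPM in controls and between 25.3 and 35.6 CPM (median 28.7) in deficient libraries. Again the groups did not overlap, here with the deficient libraries lower. Eif2ak3 fell by 1.05 (SE 0.110, 95% interval -1.28 to -0.81, adjusted p = 1.19e-06, edgeR). Atf6 (chr1:170704674-170867771) stood at 34.3, 27.7 and 34.2 CPM in controls and between 35.4 and 43.2 CPM (median 38.2) in deficient libraries. All deficient libraries were above the controls by this measure, yet the fitted change of 0.19 (95% interval -0.01 to 0.40) missed the threshold (adjusted p = 0.102, edgeR). Atf6 passed with totals as the scale (0.28, adjusted p = 0.0241), without the count filter (0.30, adjusted p = 0.00977) and without deficient libraries 5 to 7 (0.31, adjusted p = 0.0248).

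**Figure D3:**
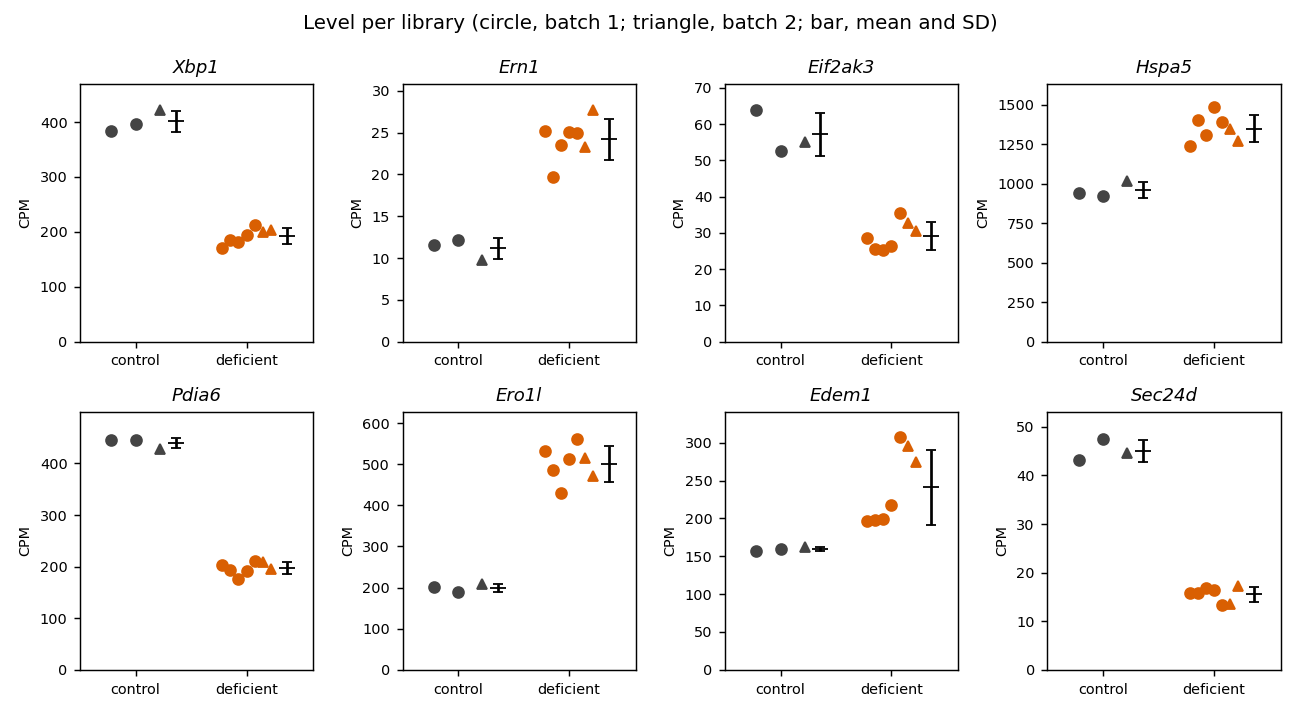
CPM per library of 8 members, for 3 control (grey) and 7 deficient (orange) libraries, with circles for batch 1, triangles for batch 2, and bars for the mean and SD. The groups do not overlap in any of the 8 panels, and the 3 upper values of Edem1 are deficient libraries 5 to 7.

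Of the chaperones, BiP was the most abundant and rose, while a pair of its co-chaperones fell. Hspa5 (ENSMUSG00000026864, chr2:34771970-34777547) encodes BiP, the HSP70 of the ER that also holds the sensors inactive. It stood at 942, 921 and 1019 CPM in controls and between 1241 and 1484 CPM (median 1345) in deficient libraries, with no overlap. Hspa5 rose by 0.40 (SE 0.0531, 95% interval 0.29 to 0.52, adjusted p = 1.10e-05, edgeR), or 1.32-fold. It was first of the 32 members in CPM per kb in both groups, at 227 in controls and 319 in deficient cells.

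Dnajc3, a co-chaperone of BiP that also inhibits eIF2-alpha kinases, stood at 133, 119 and 130 CPM in controls and between 96.5 and 114 CPM (median 101) in deficient libraries. The groups did not overlap, and Dnajc3 fell by 0.37 (SE 0.0684, adjusted p = 0.000247, edgeR). Dnajb11, a co-chaperone that hands unfolded protein to BiP, stood at 104, 89.0 and 106 CPM against 79.2 to 91.9 CPM (median 87.1). Here control library 2 lay within the range of the deficient ones. Dnajb11 fell by 0.30 (SE 0.0697, adjusted p = 0.00177, edgeR), a call lost without the count filter (-0.19, adjusted p = 0.0611).

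Manf, a small ER protein that binds BiP, rose by 0.24 (SE 0.0659, adjusted p = 0.00557, edgeR), from 91.0 ± 2.80 CPM (SD, n = 3) to 114 ± 6.90 CPM (SD, n = 7). Its exons overlap those of Rbm15b on the same strand and of Dcaf1 on the opposite one, and with the strand setting of the counting unknown its level is uncertain. Dnajb9, a BiP co-chaperone that restrains IRE1-alpha, went from 7.33 ± 1.51 to 10.5 ± 1.31 CPM and rose by 0.43 (SE 0.164, adjusted p = 0.0355, edgeR). The rise of Dnajb9 rested on single libraries. It missed the threshold without control library 2 (0.26, adjusted p = 0.241), control library 3 (0.45, adjusted p = 0.0828), or deficient library 2 (0.42, adjusted p = 0.0539), 4 (0.38, adjusted p = 0.0542) or 7 (0.41, adjusted p = 0.0651). It also missed within batch 1 (0.45, adjusted p = 0.0996) and within batch 2 (0.38, adjusted p = 0.235), where the lone control is assumed to vary like the other libraries.

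The other 3 chaperones did not pass. Hsp90b1, the HSP90 of the ER, had a log2 fold change of -0.10 (95% interval -0.21 to 0.02) at 424 ± 11.4 and 421 ± 18.9 CPM. Hyou1, which exchanges the nucleotide of BiP, had -0.03 (95% interval -0.15 to 0.10), and Sdf2l1, a partner of the BiP co-chaperones, had -0.06 (95% interval -0.36 to 0.23). The interval of Hspa5 thus lay above 0 and those of these 3 genes included 0.

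Lectin chaperones hold glycoproteins until their sugars show that folding is done. Calr, the soluble one, stood at 190, 194 and 184 CPM in controls and between 129 and 168 CPM (median 153) in deficient libraries. The groups did not overlap, and Calr fell by 0.40 (SE 0.0860, adjusted p = 0.00101, edgeR). Canx, its membrane-bound relative, stood at 972, 907 and 958 CPM against 848 to 994 CPM (median 932), with overlap. Canx did not pass (-0.13, 95% interval -0.24 to -0.01, adjusted p = 0.0544, edgeR), but did pass without control library 2 (-0.16, adjusted p = 0.0435) or deficient library 5 (-0.14, adjusted p = 0.0298), with no batch term (-0.13, adjusted p = 0.0459) and after thinning to equal depth (-0.14, adjusted p = 0.0339).

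The oxidoreductases held the widest contrast of the set. Pdia6 (ENSMUSG00000020571, chr12:17266545-17284770), a disulfide isomerase that works with BiP and acts on the sensors, stood at 445, 446 and 428 CPM in controls and between 177 and 211 CPM (median 196) in deficient libraries. No deficient library came near a control. Pdia6 fell by 1.24 (SE 0.0608, 95% interval -1.37 to -1.11, adjusted p = 3.15e-10, edgeR), which is 2.36-fold lower.

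Ero1l (ENSMUSG00000021831, chr14:45283087-45318771), the oxidase that passes electrons from the isomerases to oxygen, moved the other way. It stood at 201, 189 and 209 CPM in controls and between 429 and 562 CPM (median 512) in deficient libraries. All 7 deficient libraries were above the controls, and Ero1l rose by 1.24 (SE 0.0786, 95% interval 1.07 to 1.41, adjusted p = 4.85e-09, edgeR), or 2.37-fold. In CPM per kb, Ero1l went from 37.8 (13th of 32 members) to 94.8 (5th), and Pdia6 from 117 (5th) to 52.7 (10th).

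P4hb, the classical protein disulfide isomerase, stood at 604, 616 and 629 CPM in controls and between 414 and 474 CPM (median 443) in deficient libraries. It fell by 0.56 (SE 0.0528, adjusted p = 3.65e-07, edgeR), with no overlap. Creld2, an ER protein induced by stress, fell by 0.32 (SE 0.0771, adjusted p = 0.00235, edgeR), from 35.9 ± 2.55 to 30.6 ± 1.10 CPM. The call of Creld2 was lost without the count filter (-0.21, adjusted p = 0.122) and within batch 2 (-0.16, adjusted p = 0.395).

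The remaining isomerases and the second oxidase did not pass. Pdia3, the isomerase that works with the lectin chaperones, had 0.05 (95% interval -0.09 to 0.19), and passed without deficient libraries 1 to 4 (0.14, adjusted p = 0.0398). Pdia4, a further isomerase, had 0.11 (95% interval -0.01 to 0.22, adjusted p = 0.0974, edgeR), and all its deficient libraries lay above the controls. It passed with upper quartile scaling (0.13, adjusted p = 0.0424), with totals (0.19, adjusted p = 0.00916) and without the count filter (0.22, adjusted p = 0.0140). Ero1lb, the paralog of Ero1l, had -0.02 (95% interval -0.27 to 0.22) at 18.3 ± 2.08 and 19.1 ± 2.05 CPM, and shares 9.26% of its 50-base stretches with other genes, which makes its level less certain.

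**Figure D4:**
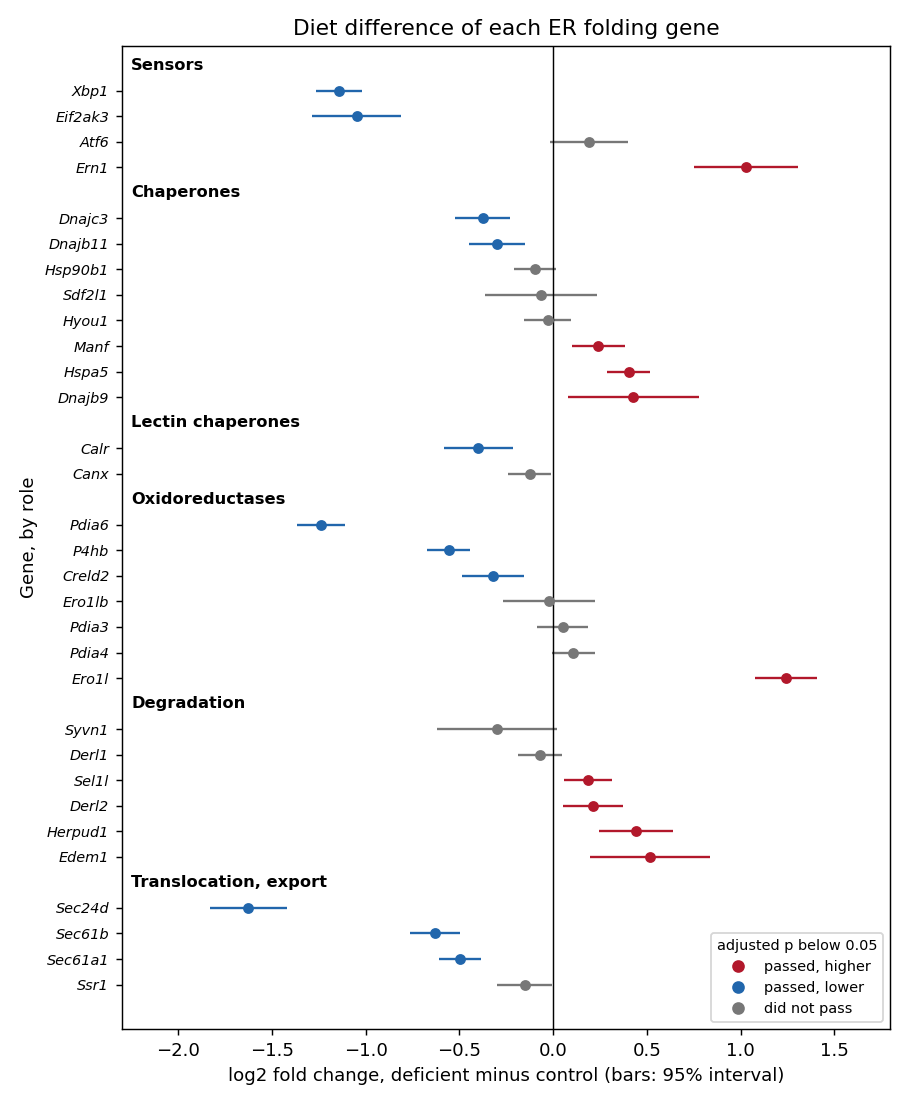
Fitted log2 fold change (deficient minus control, horizontal axis) with 95% interval for the 31 tested members, ordered within each role, in red or blue where the adjusted p was below 0.05 and in grey otherwise. Values run from -1.63 for Sec24d to 1.24 for Ero1l, and the called degradation genes all lie to the right of 0.

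Of the 6 tested members that clear misfolded protein from the ER, the 4 called ones rose, by 0.19 to 0.52 on the log2 scale. Herpud1, a membrane protein that organises the degradation complex, stood at 57.8, 60.9 and 61.0 CPM in controls and between 71.8 and 104 CPM (median 87.6) in deficient libraries. The groups did not overlap, and deficient libraries 1 to 4 were the upper ones. Herpud1 rose by 0.44 (SE 0.0926, adjusted p = 0.000780, edgeR). Within batch 2 its change was 0.26 and did not pass (adjusted p = 0.0740).

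Edem1, which picks out glycoproteins with trimmed mannose for degradation, stood at 156, 159 and 162 CPM in controls. Deficient libraries 1 to 7 gave 196, 198, 199.7, 218, 308, 296 and 274 CPM, so that all were above the controls and libraries 5 to 7 stood apart from the rest. Edem1 rose by 0.52 (SE 0.143, 95% interval 0.20 to 0.83, adjusted p = 0.0107, edgeR). Without deficient libraries 5 to 7 the rise was 0.27 (adjusted p = 0.00420), and without libraries 1 to 4 it was 0.82 (adjusted p = 1.95e-14). The call was lost without control library 3 (0.41, adjusted p = 0.0713) and within batch 1 (0.41, adjusted p = 0.0867). Libraries 5 to 7 were also those with the highest sums of CD8, cytotoxic and B cell markers given above, and the part of those cells in this result was not tested.

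Sel1l, the adaptor that joins the ubiquitin ligase to its cargo, stood at 120, 114 and 127 CPM in controls and between 134 and 156 CPM (median 144) in deficient libraries. It rose by 0.19 (SE 0.0597, adjusted p = 0.0141, edgeR), and lost the call without control library 2 (0.155, adjusted p = 0.0878), within batch 1 (0.19, adjusted p = 0.0580) and within batch 2 (0.18, adjusted p = 0.104). Derl2, a channel component of the same complex, rose by 0.22 (SE 0.0750, adjusted p = 0.0227, edgeR), from 46.0 ± 3.15 to 56.6 ± 4.10 CPM. Its call too was fragile: it was lost without control library 1 (0.18, adjusted p = 0.108) or 3 (0.23, adjusted p = 0.0539), without deficient libraries 5 to 7 (0.21, adjusted p = 0.0773), after thinning (0.16, adjusted p = 0.143), within batch 1 (0.23, adjusted p = 0.0670) and within batch 2 (0.19, adjusted p = 0.214). Exons of Derl2 overlap those of Mis12 on the opposite strand.

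Syvn1, the ubiquitin ligase itself, did not pass (-0.30, 95% interval -0.62 to 0.02, adjusted p = 0.0980, edgeR) at 10.4 ± 1.04 and 8.96 ± 1.06 CPM. It is among the low members and overlaps Mrpl49 on the opposite strand. Derl1, the paralog of Derl2, had -0.07 (95% interval -0.19 to 0.05). The ligase and its adaptor thus had fitted changes of opposite sign, of which the adaptor's alone passed. Derl3, another paralog, had between 0 and 4 counts per library.

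Of the 4 genes of translocation into the ER and export from it, 3 fell. Sec24d (ENSMUSG00000039234, chr3:123267455-123365641), a COPII coat subunit that selects cargo for export, stood at 43.1, 47.5 and 44.6 CPM in controls and between 13.4 and 17.4 CPM (median 15.8) in deficient libraries. Sec24d fell by 1.63 (SE 0.0972, 95% interval -1.83 to -1.42, adjusted p = 2.66e-09, edgeR), or 3.08-fold, the largest fitted change among the 31 members tested. In CPM per kb it went from 7.12 to 2.46.

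Sec61b, a small subunit of the channel through which proteins enter the ER, stood at 66.2, 66.4 and 66.5 CPM in controls and between 42.3 and 48.3 CPM (median 46.0) in deficient libraries. It fell by 0.63 (SE 0.0635, adjusted p = 7.10e-07, edgeR). It shares 17.4% of its 50-base stretches with other genes, pseudogenes among them, so reads may be lost or split. Sec61a1, the channel itself, stood at 301, 294 and 295 CPM against 213 to 235 CPM (median 221), and fell by 0.50 (SE 0.0520, adjusted p = 1.06e-06, edgeR). The pair of channel subunits therefore moved by similar amounts, with intervals of -0.77 to -0.50 for Sec61b and -0.61 to -0.39 for Sec61a1.

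Ssr1, a subunit of the complex that sits beside the channel, did not pass (-0.15, 95% interval -0.30 to -0.01, adjusted p = 0.0686, edgeR) at 108 ± 1.66 and 103 ± 7.30 CPM. It passed without deficient library 5 (-0.17, adjusted p = 0.0303), without deficient libraries 5 to 7 (-0.21, adjusted p = 0.0312) and after thinning (-0.18, adjusted p = 0.0483).

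Promoter elements were found in members that rose, that fell and that did not pass. The counts are small, and a link between element and direction was not tested. Of the 10 members with an ERSE, Hspa5 rose, Dnajc3, Calr, Pdia6 and Creld2 fell, Hsp90b1, Canx, Ero1lb and Syvn1 did not pass, and Derl3 was not tested. By call, 1 of 8 rising members with a window carried an ERSE (12.5%), 4 of 10 falling members (40%) and 4 of 8 that did not pass (50%). Hspa5 and Pdia6, whose windows are printed above, both carry the element on the strand of the gene, and their mRNA levels moved in opposite directions. ERSE-II was in Herpud1, which rose, and in Dnajb11, which fell. Over all 37 genes with an ERSE, 18 were tested, of which 5 rose and 6 fell. These 18 include the 9 tested members, of which 1 rose and 4 fell. Of the 9 tested genes that are not members, 4 rose and 2 fell.

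Other genes of the same organelle were taken from 4 lists of 114 genes outside the members. Of 112 tested, 22 rose and 59 fell (19.6% and 52.7%, beside 29.4% and 28.6% of all genes), with a median log2 fold change of -0.22. Other folding genes had 2 higher and 20 lower of 29, with a median of -0.27, and other translocation and export genes had 5 higher and 25 lower of 42, with a median of -0.31. Other degradation genes had 8 higher and 10 lower of 24 (median -0.14), and other signalling genes 7 higher and 4 lower of 17 (median 0.19). The lower counts thus lay mainly in the folding and the translocation and export lists.

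**Figure D5:**
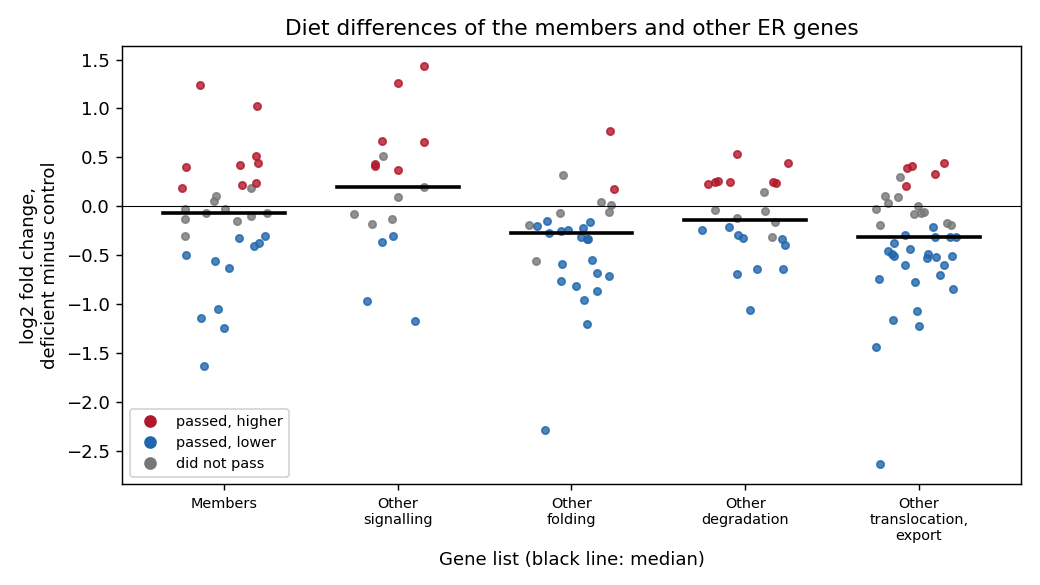
Fitted log2 fold change (deficient minus control, vertical axis) of the 31 tested members and of 112 other ER genes in 4 lists, 1 point per gene, red or blue where the adjusted p was below 0.05 and grey otherwise, with a black line at each median. The medians run from -0.31 in other translocation and export genes to 0.19 in other signalling genes, with the members at -0.07.

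In the PERK branch the kinase gene fell, while several genes known to act below it rose, where 29.4% of all genes did. Phosphorylation of eIF2-alpha and the ATF4 protein were not measured, so the activity of PERK is not known here. Atf4, the transcription factor translated when eIF2-alpha is phosphorylated, rose by 0.43 (adjusted p = 5.81e-06, edgeR), from 407 ± 6.23 to 582 ± 23.3 CPM. Ddit3, the stress factor CHOP, rose by 0.67 (adjusted p = 4.90e-07), and Trib3, a pseudokinase target of both, rose by 1.44 (adjusted p = 5.05e-09), from 68.2 ± 4.02 to 197 ± 21.4 CPM. Ppp1r15a, which helps dephosphorylate eIF2-alpha, fell by 0.30 (adjusted p = 0.00113). All 4 had groups without overlap, where 50.8% of all genes did. Of further genes of the branch, named here after their values were seen, Eif2s1, which encodes eIF2-alpha itself, rose by 0.38 (adjusted p = 0.000464, edgeR), and Ppp1r15b, a relative of Ppp1r15a, did not pass (0.10, adjusted p = 0.185). Of the other kinases of eIF2-alpha, also named after their values were seen, Eif2ak2 rose by 1.26 (adjusted p = 1.79e-06, edgeR). Eif2ak1 (-0.13, adjusted p = 0.334) and Eif2ak4 (-0.18, adjusted p = 0.0758) did not pass.

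Among the other signalling genes the ER membrane-bound transcription factors Creb3 and Creb3l2 changed by -0.97 and -1.17 (adjusted p = 1.51e-07 and 3.07e-05, edgeR). In the folding list Tmx3, a membrane-bound isomerase, rose by 0.77 and Mogs, the first glucosidase of glycan trimming, by 0.18, whereas the folding factor Erp29 fell by 0.76 and the sulfhydryl oxidase Qsox1 by 0.86. In the degradation list Nploc4, a cofactor of the p97 ATPase, rose by 0.44 and the ubiquitin-conjugating enzyme gene Ube2g2 by 0.53. Edem2, which acts on the same mannose trimming as Edem1, fell by 1.05, and Selenos fell by 0.64.

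In the translocation and export list Spcs2, a subunit of signal peptidase, rose by 0.39, and the cargo receptor gene Lman2 by 0.44. The receptors that return escaped ER proteins from the Golgi were lower: Kdelr2 fell by 1.16 (adjusted p = 9.82e-10, edgeR), from 124 ± 3.23 to 59.0 ± 3.09 CPM, and Kdelr3 by 2.63 (adjusted p = 2.46e-09), from 17.3 ± 2.10 to 2.96 ± 0.623 CPM. BiP and the other soluble ER chaperones are known cargo of these receptors.

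For batch, tested in the same fit, 0 of 13699 genes passed (0%, edgeR; 1038 at an unadjusted p below 0.05, among which 0 members). Within batch 1 alone 5 members rose and 11 fell, or 51.6%, where 48.4% of all genes tested were called. Batch 2 holds 1 control library, which is assumed to vary like the others, so its calls have no replicate check on the control side. Xbp1 had -1.14 and -1.13 in the batches, Eif2ak3 -1.13 and -0.85, Ern1 0.90 and 1.31, Hspa5 0.46 and 0.30, Pdia6 -1.28 and -1.14, Ero1l 1.28 and 1.18, and Sec24d -1.63 and -1.61. Leaving out deficient libraries 5 to 7 gave 8 members that rose and 12 that fell (64.5%, beside 56.4% of all genes). Leaving out libraries 1 to 4, an alternative added after seeing the data, gave 9 and 11 (64.5%, beside 63.4% of all genes).

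By level per kb 24 of the 32 members had another place in the order of the deficient cells than in that of the controls, mostly by a few places. Hspa5, P4hb and Canx were the upper 3 in both groups, P4hb at 215 and 155 and Canx at 201 and 196 CPM per kb in controls and deficient cells. P4hb and Canx exchanged places. Xbp1 moved from 4th to 8th of 32, Pdia6 from 5th to 10th, Ero1l from 13th to 5th, Edem1 from 19th to 12th and Sec24d from 25th to 30th. Herpud1 moved from 17th to 13th, Creld2 from 15th to 19th and Sec61b from 10th to 14th. Derl3 was last in both groups.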

How the data were processed

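RNA sequencing counts of 10 TH2 libraries were used. The deposited table holds the authors' raw read counts per Ensembl gene, and the submitters' processing notes name STAR 2.7.10a, HTSeq 0.13.5 and GRCm38. The sources used here do not give the strand setting or the annotation release. Of 49671 IDs, 49412 matched GENCODE release M21 and the other 259 held 0.0226% of counts.

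Counts were fitted in R 4.3.3 with edgeR 4.0.16 (filterByExpr, minimum count 10, TMM, glmQLFit robust, glmQLFTest, terms for diet and batch, all 10 libraries). The threshold was an adjusted p (Benjamini-Hochberg) below 0.05, and the biological coefficient of variation, in common over genes, was 12.7%. Levels are CPM on library totals, per kb of merged exons between genes. Controls, being shallower, limit the precision of low genes. Figures were drawn with matplotlib 3.10.9. The fit was also run on simulated counts with few changed genes and the same dispersion for all genes. Such a run does not check the fit where 58% of genes were called, as here.

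Members and lists were chosen with earlier results of these data known. Library values (each control, and the lowest, median and highest deficient) are given for the 4 sensors and, per other role, for the 3 members of smallest adjusted p and any called against the majority. In each other ER list the 2 called genes of smallest adjusted p in each direction are named, as are Atf4, Ddit3, Ppp1r15a and Trib3. Alternatives covered other scalings and filters, DESeq2 1.42.0, limma 3.58.1 (voom), no batch term, each batch, sex as a term (Xist was high in deficient libraries 1 and 3), thinning to the shallowest library, removal of ribosomal protein, mitochondrial and haemoglobin genes, another threshold, and libraries left out.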

Additional observations from a re-analysis of the deposited data

How the results depend on the processing

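Over 27 alternatives 13 of the 20 called members kept their call (4 higher, 9 lower) and 0 reversed. The number of members higher was 9 and of those lower 11, but 5 were higher within batch 1 or at an adjusted p below 0.01. With totals as the scale 11 were higher and 11 lower, and without the count filter 11 were higher and 9 lower. The balance of the directions thus depended on the processing. Leaving out each library in turn gave 6 to 9 higher and 11 to 13 lower. Only members that did not pass changed sign. With totals as the scale Hyou1 was 0.0573, Sdf2l1 0.0199, Ero1lb 0.0635 and Derl1 0.0148. Without the count filter Hsp90b1 was 0.0121, Hyou1 0.0812, Sdf2l1 0.0457, Ero1lb 0.0872 and Derl1 0.0376. Within batch 2 Hyou1 was 0.0109, Sdf2l1 0.236 and Ero1lb 0.103. With each library left out in turn Sdf2l1 ran from -0.195 to 0.0040 (without control library 1) and Ero1lb from -0.0741 to 0.0846 (without control library 2; 0.0081 without deficient library 1), and Ero1lb was 0.0068 with sex as a term and 0.123 without deficient libraries 1 to 4. With totals the median of all genes was 0.10, against 0.02; without the filter it was 0.195, over 35136 genes and so not the same set. The cause was not tested. Other ER genes had 26 higher and 43 lower without the filter. DESeq2 gave 9 and 11 members, limma-voom 8 and 11. No paired analysis was possible because the labels carry no replicate numbers, and those used follow accession order. Depth limits the low members (Derl3, Dnajb9, Syvn1, Ern1).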
